A study of Homo sapiens with 4 samples.

Results

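The collagen chain genes are the protein-coding genes that encode the alpha chains of the collagens. They were chosen by gene symbol, as COL followed by a number, the letter A and a second number, after Ensembl identifiers had been matched to symbols. This gave 44 genes of the 63677 in the count table, of which 30 had enough counts to be tested. RNA came from the LX-2 cell line, which derives from human hepatic stellate cells. Cells received the miR-6133-5p mimic or the negative control mimic, miControl, each at 20 nM, and were given rhTGF-β1 at 5 ng/mL 24 h later. RNA was taken 24 h after rhTGF-β1, so both groups had been treated with it, and 2 libraries were sequenced per group. Counts on genes summed to 51862006 and 57903388 in miControl replicates 1 and 2, and to 61747010 and 93811213 in miR-6133-5p replicates 1 and 2. The labels do not say that the replicates were separate cultures, so p-values measure only the spread between these libraries.

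Collagens are triple helices of alpha chains, and the type of a collagen is set by the chains it contains. Fibrillar collagens such as type I form the fibers that accumulate in scarred liver, type IV forms the sheets of basement membranes, and type VI forms beaded filaments. FACIT collagens sit on the surface of fibrils, and transmembrane collagens are anchored in the cell membrane. Activated hepatic stellate cells are a main source of fibrillar collagen in the injured liver.

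Levels are given as counts scaled to a common total (CPM), with library totals scaled by the TMM factors of edgeR. The stellate label was compared with 8 marker genes, of which 5 were tested. *VIM*, an intermediate filament gene, was at 1853 and 1776 CPM in miControl and at 2030 and 1555 CPM in miR-6133-5p, and the groups overlapped. *PDGFRB*, a growth factor receptor gene of stellate cells, was at 43.6 and 39.9 CPM against 38.3 and 47.4 CPM. *ACTA2*, the smooth muscle actin gene of activated cells, was at 41.6 and 34.8 CPM against 10.03 and 9.78 CPM. Both miR-6133-5p libraries were therefore below both miControl libraries for *ACTA2*. *DES* had 0 counts in both miControl libraries, and *LRAT* did not exceed 0.0706 CPM in any library. Among markers of other cells, *ALB* of hepatocytes did not exceed 0.0605 CPM and *CD163* of macrophages was at 0 in all libraries. *SOX9*, listed for cholangiocytes, was at 80.2 and 80.8 CPM against 33.1 and 29.5 CPM, while *EPCAM* did not exceed 0.0407 CPM. The 4 genes of the cholangiocyte list summed to 83.9 and 85.3 CPM against 39.9 and 36.8 CPM, most of it from *SOX9*, the 1 gene called lower of 2 tested. The other tested gene, *KRT7*, lay in the other direction, at 3.62 and 4.44 CPM against 6.61 and 7.08 CPM, and was not called. The part of this list in the results was not tested. The hepatocyte list, with 1 gene tested, summed to at most 2.84 CPM in any library, and the endothelial genes *CDH5*, *VWF* and *KDR*, with 2 tested, to at most 2.99 CPM, and none of these genes was called. The endothelial marker *PECAM1* was not matched to an identifier and was not used here. The macrophage and leukocyte list summed to at most 0.373 CPM, and 0 of its genes had enough counts to be tested. Of the chondrocyte list, *MATN3* was called lower, at 11.3 and 12.3 CPM against 5.46 and 5.41 CPM, and *COMP* and *ACAN* had too few counts to be tested. Of the stellate list, *ACTA2* was the 1 gene called. *TGFBR2*, the type II TGF-β receptor gene, was at 542 and 552 CPM in miControl and at 109 and 112 CPM in miR-6133-5p. In bulk RNA, fewer cells of a type and less RNA per cell cannot be told apart.

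Genes were called lower or higher in miR-6133-5p at an adjusted p below 0.01 and a log2 fold change beyond 0.8 (edgeR quasi-likelihood test, 2-sided, Benjamini-Hochberg over 18252 genes). By this rule 6 of the 30 tested chains were called lower, 20%, where 5.54% of all tested genes were. Another 2 were called higher, 6.67%, where 2.90% of all tested genes were, and 22 were not called. The median log2 fold change was -0.32 over the tested chains and 0.03 over all tested genes. The 2 miR-6133-5p libraries were each lower than either miControl library for 15 tested chains, 50% against 31.3% of all tested genes. They were each higher for 6 chains, 20% against 33.2%, and 9 chains overlapped. With library totals alone, 5 chains were called lower and 3 higher, against 709 and 977 of all tested genes (1011 and 529 with TMM). That scaling moved the median of all tested genes from 0.03 to 0.19 and that of the tested chains from -0.32 to -0.15, and *COL5A2*, *COL11A1* and *COL18A1*, none of them called, changed sign. With glmTreat, which tests the fold against the threshold of 0.8 itself, *COL1A1* and *COL6A1* were called lower, and the calls of *COL1A2*, *COL5A3*, *COL12A1*, *COL25A1*, *COL16A1* and *COL4A5* ended. With 2 libraries against 2, an exact permutation test cannot go below p = 0.33, and the calls use a variance estimate that edgeR moderates over all genes.

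**Figure D1:**
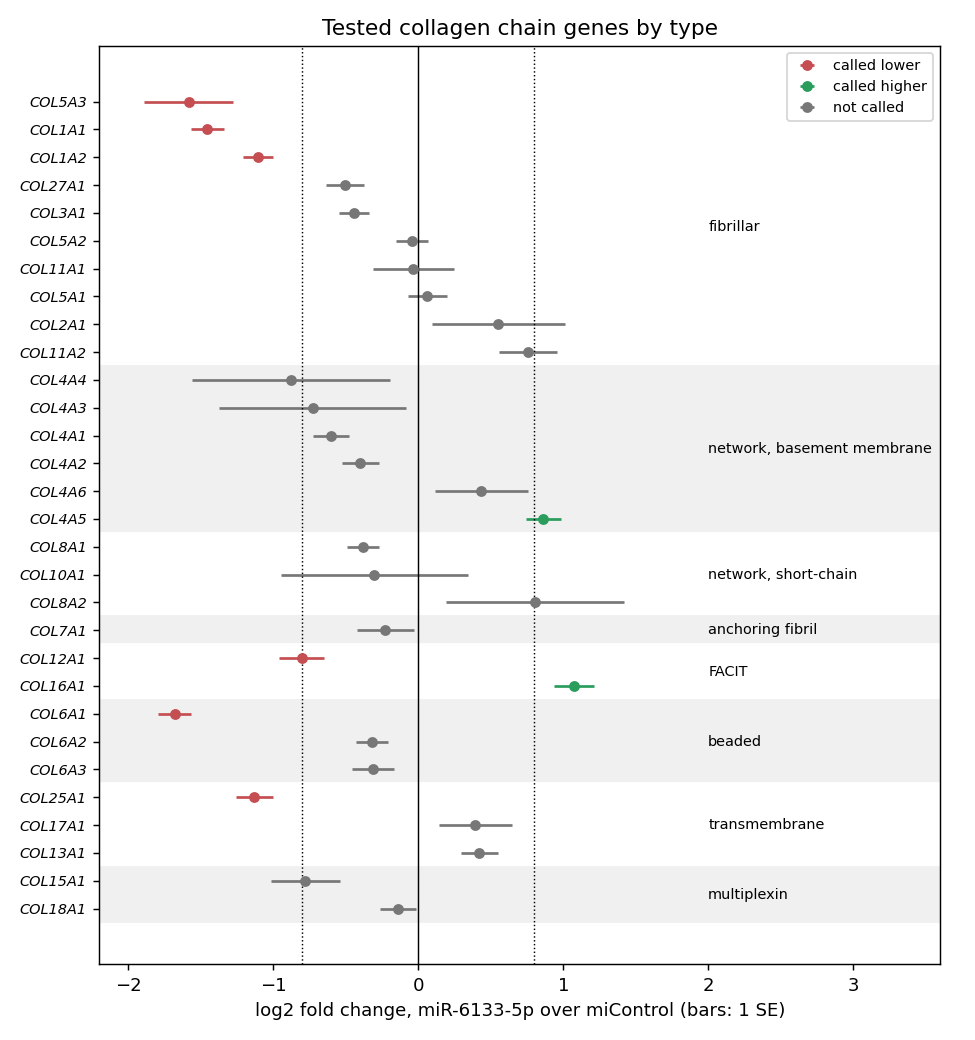
Log2 fold change of the 30 tested collagen chain genes, miR-6133-5p over miControl, grouped by type, with bars of 1 standard error and dotted lines at the threshold of 0.8 on either side of 0. The 6 chains called lower run from *COL6A1* at -1.68 to *COL12A1* at -0.81, and the 2 called higher are *COL16A1* at 1.07 and *COL4A5* at 0.86.

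The collagen chains also differed between the miR-6133-5p replicates. Of the 30 tested chains, 28 were higher in replicate 2 than in replicate 1, 93.3% where 48.0% of all tested genes were, with a median difference of 0.23 on the log2 scale, where the median of all tested genes was -0.01. Across 13449 tested coding genes, this replicate difference had a Spearman's rho of 0.503 with transcript length, and of 0.241 between the miControl replicates. Over the tested chains it was 0.471 between the miR-6133-5p replicates. Between the miControl replicates, the median difference of the tested chains, replicate 2 minus replicate 1, was -0.07. Genes are not independent replicates, and these values are a description. Without miR-6133-5p replicate 1 the median of the tested chains was -0.11, and without replicate 2 it was -0.45. The log2 fold change between groups had a rho of -0.179 with transcript length across the same coding genes and of -0.153 across the tested chains.

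Among the 11 fibrillar chains, 10 were tested, 3 were called lower and none was called higher. *COL1A1*, which encodes the alpha 1 chain of type I collagen, was at 3112 and 2723 CPM in miControl and at 995 and 1133 CPM in miR-6133-5p. Its partner *COL1A2* was at 57.1 and 57.4 CPM against 25.8 and 27.3 CPM. *COL5A3*, a minor chain of type V collagen, was at 1.63 and 1.65 CPM against 0.535 and 0.555 CPM. The groups did not overlap for any of these genes, and the replicates lay close together. The log2 fold change of *COL1A1* was -1.46 (SE 0.112, adjusted p = 8.88e-07, edgeR) and that of *COL1A2* was -1.11 (SE 0.103, adjusted p = 4.34e-06, edgeR). *COL5A3* had a log2 fold change of -1.58 (SE 0.306, adjusted p = 1.58e-03, edgeR), and leaving out either miControl library ended its call, with log2 fold changes of -1.60 in both cases.

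The other chains of type V collagen, which takes part in starting fibrils, were not called. *COL5A1* was at 1130 and 1070 CPM in miControl and at 967 and 1330 CPM in miR-6133-5p. *COL5A2* was at 428 and 419 CPM against 375 and 447 CPM. For both genes the miControl libraries lay between the miR-6133-5p libraries. *COL3A1*, the chain of type III collagen, was at 138 and 131 CPM against 96.7 and 101 CPM, and its groups did not overlap. Its log2 fold change of -0.44 had an adjusted p of 4.86e-03 (edgeR) and fell short of the fold threshold. *COL11A2* lay just outside on the other side, with a log2 fold change of 0.76 and an adjusted p of 0.0114 (edgeR), and was called higher with library totals alone and without miR-6133-5p replicate 1. *COL27A1* had -0.51 with an adjusted p of 0.0115 (edgeR). Its log2 fold change was -0.30 without miR-6133-5p replicate 1 and -0.75 without replicate 2. *COL2A1* and *COL11A1* were below 2 CPM in every library and were not called, and *COL24A1*, with 8 counts in all, was not tested.

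All 6 basement membrane chains of type IV collagen were tested, and *COL4A5* was called higher. *COL4A5* was at 11.7 and 12.3 CPM in miControl and at 20.4 and 23.0 CPM in miR-6133-5p. Both miR-6133-5p libraries were above both miControl libraries, with a log2 fold change of 0.86 (SE 0.121, adjusted p = 1.42e-04, edgeR). Without miR-6133-5p replicate 2 its log2 fold change was 0.77, and it was not called. The most abundant chains of the type were *COL4A2* and *COL4A1*, which form the common type IV molecule. *COL4A1* was at 546 and 534 CPM against 309 and 401 CPM, and *COL4A2* was at 1229 and 1137 CPM against 770 and 1022 CPM. Neither pair of groups overlapped, and neither gene was called. The log2 fold change of *COL4A1* was -0.60 (adjusted p = 2.49e-03, edgeR), and without miR-6133-5p replicate 2 it was -0.804 and the gene was called lower. *COL4A3*, *COL4A4* and *COL4A6* were below 2 CPM in every library and were not called, although the log2 fold change of *COL4A4* was -0.88 (adjusted p = 0.371, edgeR). This value was -0.15 without miR-6133-5p replicate 1 and -3.07 without replicate 2.

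The short-chain network collagens *COL8A1*, *COL8A2* and *COL10A1* were tested, and none was called. *COL8A1* was at 25.6 and 25.3 CPM in miControl and at 19.0 and 20.1 CPM in miR-6133-5p. *COL8A2* was at 0.285 and 0.147 CPM against 0.184 and 0.545 CPM. The groups were apart for *COL8A1* and overlapped for *COL8A2*, whose log2 fold change of 0.80 had an adjusted p of 0.366 (edgeR). *COL7A1*, the chain of anchoring fibrils, was at 46.3 and 41.9 CPM against 26.8 and 48.2 CPM, with 1 miR-6133-5p library below and 1 above the miControl libraries.

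Among the 10 FACIT chains, *COL12A1* and *COL16A1* were tested, and they were called in opposite directions. *COL12A1* was at 668 and 700 CPM in miControl and at 314 and 469 CPM in miR-6133-5p. *COL16A1* was at 13.1 and 11.9 CPM against 23.1 and 29.4 CPM. Neither gene's groups overlapped. The log2 fold change of *COL16A1* was 1.07 (SE 0.136, adjusted p = 6.02e-05, edgeR). That of *COL12A1* was -0.81 (SE 0.153, adjusted p = 1.37e-03, edgeR), just inside the fold threshold. Besides glmTreat, the call ended with library totals alone, at -0.64, and without a filter on low counts, at -0.797. It also ended without miR-6133-5p replicate 1, at -0.54, without miControl replicate 2, at -0.79, and without miControl replicate 1, where the log2 fold change was larger, at -0.84. *COL9A1*, *COL19A1* and *COL22A1* had 0 counts in all 4 libraries. Such a 0 allows up to 3 counts, or 0.0610 CPM in the shallowest library, for counting error only. That bound takes counts as independent and would be higher if mates were counted apart. *COL9A2*, *COL9A3*, *COL14A1*, *COL20A1* and *COL21A1* had between 2 and 34 counts in all and were not tested.

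Of the 5 beaded chains, the 3 of the common type VI molecule were tested, and *COL6A1* was called lower. *COL6A1* was at 213 and 197 CPM in miControl and at 59.1 and 68.7 CPM in miR-6133-5p. *COL6A2* was at 163 and 146 CPM against 116 and 132 CPM. *COL6A3* was at 1247 and 1247 CPM against 813 and 1193 CPM. All 3 genes were lower in both miR-6133-5p libraries than in either miControl library, with *COL6A3* replicate 2 close to miControl. The log2 fold change of *COL6A1* was -1.68 (SE 0.114, adjusted p = 3.20e-07, edgeR), against -0.32 for *COL6A2* and -0.31 for *COL6A3*, neither of them called. For *COL6A3* it was -0.0635 without miR-6133-5p replicate 1 and -0.616 without replicate 2. *COL6A5* was at 0 in all libraries, and *COL6A6*, with 26 counts in all, was not tested.

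Of the 4 transmembrane chains, *COL25A1* was called lower. It was at 19.3 and 20.1 CPM in miControl and at 8.23 and 9.72 CPM in miR-6133-5p, with a log2 fold change of -1.13 (SE 0.128, adjusted p = 2.22e-05, edgeR). *COL13A1* was at 9.68 and 9.31 CPM against 11.9 and 13.5 CPM, and *COL17A1* was at 1.48 and 1.29 CPM against 1.79 and 1.85 CPM. The groups of these genes did not overlap and lay in the other direction, and neither gene was called. *COL23A1*, with 6 counts in all, was not tested. The multiplexins *COL15A1* and *COL18A1* were not called. *COL15A1* had a log2 fold change of -0.78 (adjusted p = 0.0250, edgeR). *COL18A1* was at 105 and 92.3 CPM against 78.8 and 100 CPM, and 18.5% of its exon bases overlap *SLC19A1* on the opposite strand. The strand setting of the counting is not given in the sources used here. *COL26A1* and *COL28A1*, of other types, had 8 and 16 counts in all and were not tested.

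**Figure D2:**
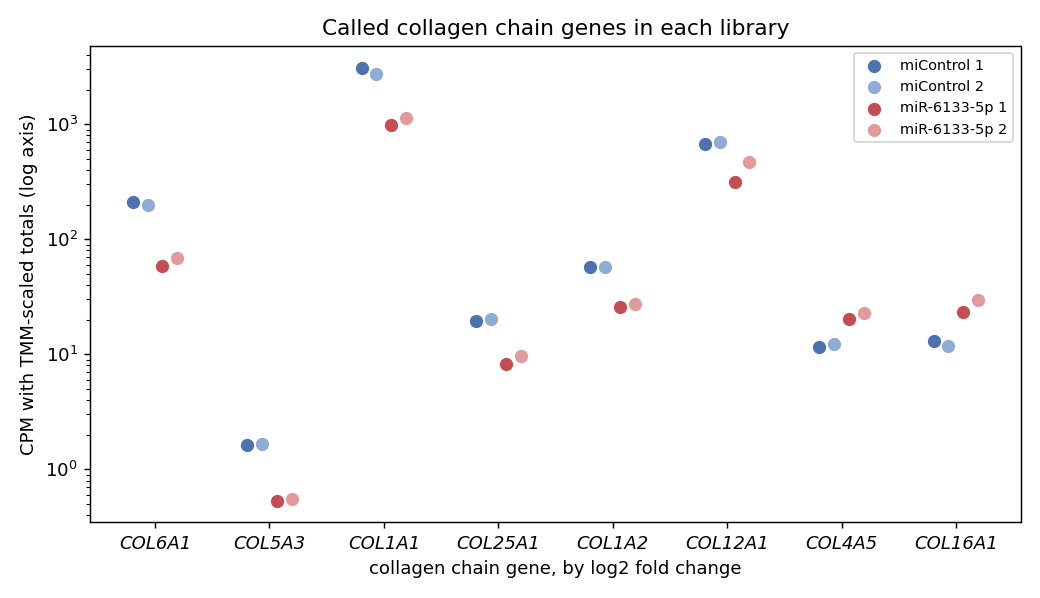
CPM of the 8 called collagen chain genes in each of the 4 libraries, on a log axis, ordered by log2 fold change. For *COL6A1* the miControl libraries are at 213 and 197 CPM and the miR-6133-5p libraries at 59.1 and 68.7 CPM, and the groups are apart for each of the 8 genes.

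To compare chains with each other, CPM was divided by the kilobases of annotated exon. Summed over all 44 chains, this level was 825 and 762 in miControl and 437 and 552 in miR-6133-5p. The miR-6133-5p mean was 0.623 of the miControl mean. Fibrillar chains made up 65.0% and 63.7% of the sum in miControl and 61.4% and 59.3% in miR-6133-5p. *COL1A1* alone gave 41.9% and 39.7% in miControl and 25.3% and 22.8% in miR-6133-5p. The level per kilobase of *COL1A1* was 345 and 302 in miControl and 110 and 126 in miR-6133-5p, so most of the fall in the sum was from *COL1A1*. This gene ranked first in both groups. *COL5A1* gave 12.3% and 12.6% of the sum in miControl and 19.8% and 21.6% in miR-6133-5p. The share of *COL5A1* was higher in both miR-6133-5p libraries while the sum was lower, and its own level per kilobase overlapped, at 101 and 95.8 in miControl and 86.7 and 119 in miR-6133-5p. With the longest coding transcript as length, an alternative chosen after seeing the data, *COL1A1* again ranked first. *COL4A2*, at 14.1% of the sum in miControl and 17.0% in miR-6133-5p on average, then ranked above *COL5A1*, at 10.01% and 16.6%. With all annotated exons *COL4A2* was at 7.73% and 9.37%, so the shares depend on the length used. Shares by type were not computed with the longest coding transcript.

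**Figure D3:**
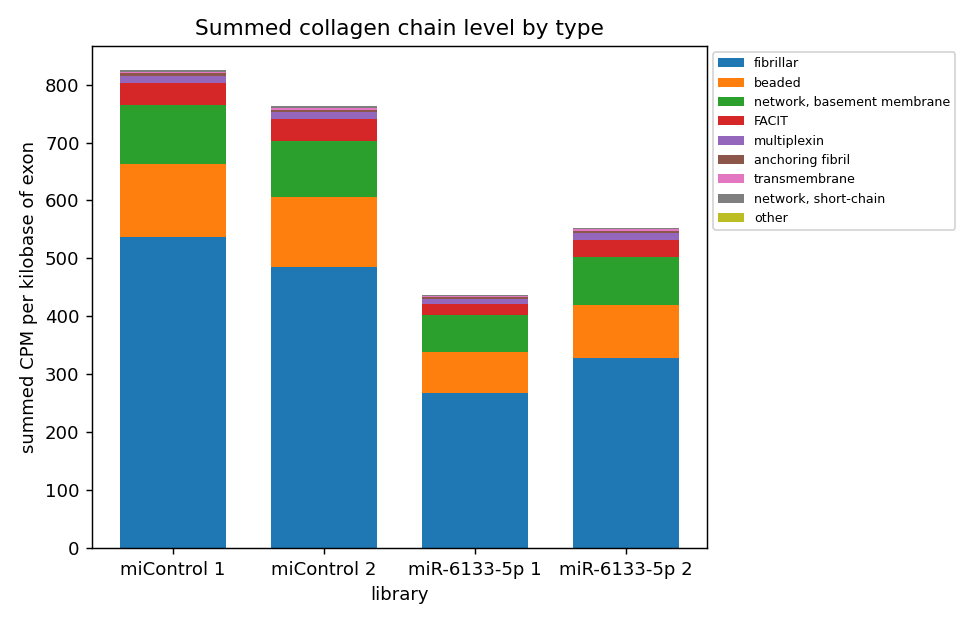
Summed CPM per kilobase of exon of the collagen chain genes in each library, stacked by type. The sums are 825 and 762 in miControl and 437 and 552 in miR-6133-5p, and fibrillar chains are the largest part in each of the 4 libraries.

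Ratios between chains of the same molecule or fibril do not depend on library scaling. Per kilobase, *COL6A1* was at 1.26 and 1.30 times *COL6A2* in miControl and at 0.492 and 0.501 times in miR-6133-5p. *COL6A3* was at 1.51 and 1.63 times *COL6A1* in miControl and at 3.54 and 4.47 times in miR-6133-5p. The groups were apart for both ratios. *COL1A1* was at 65.4 and 56.9 times *COL1A2* in miControl and at 46.3 and 49.8 times in miR-6133-5p. *COL3A1* was at 0.0589 and 0.0643 times *COL1A1* in miControl and at 0.130 and 0.119 times in miR-6133-5p. These groups were apart as well, with the type I ratio at 0.786 of its miControl mean in miR-6133-5p. *COL4A1* was at 0.584 and 0.618 times *COL4A2* against 0.528 and 0.516 times. The ratio of *COL5A3* to *COL5A1* was 0.325 of its miControl mean in miR-6133-5p. The ratios of *COL5A1* to *COL5A2* and of *COL8A1* to *COL8A2* overlapped between groups.

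**Figure D4:**
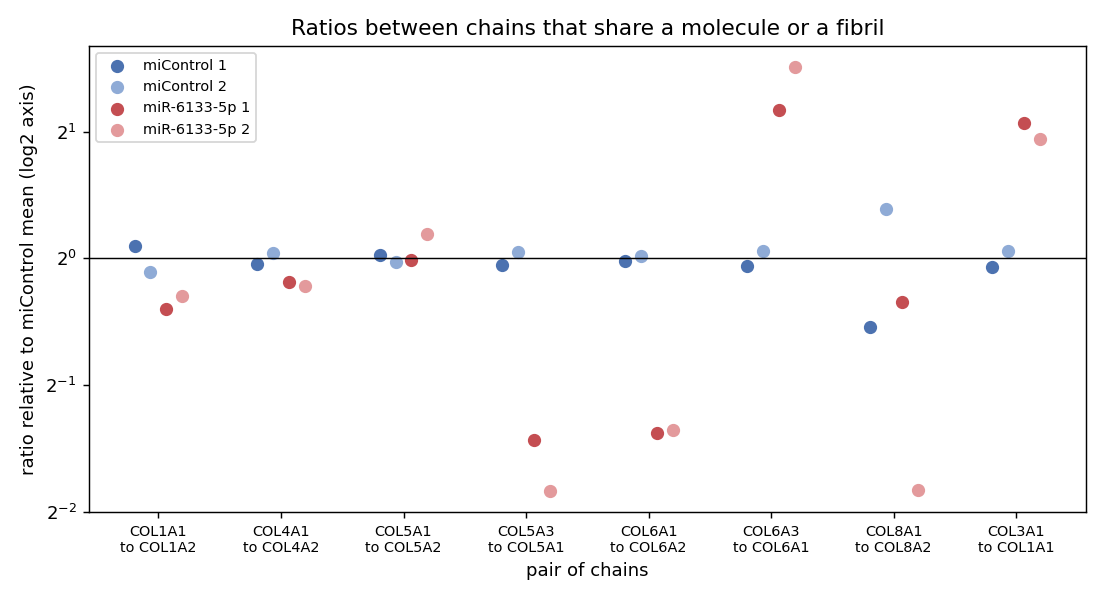
Ratio of 2 chains per kilobase of exon in each library, divided by the miControl mean of that ratio, on a log2 axis. The ratio of *COL6A1* to *COL6A2* is at 0.388 of miControl on average, and that of *COL3A1* to *COL1A1* at 2.02.

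Of the 44 members, 32 were matched to at least 1 window in the RefSeq promoter table (GRCh38.p14). The promoters of the 5 called chains among them are shown, since called chains moved in both directions in the same cells. The called chains *COL1A1*, *COL1A2* and *COL6A1* were not matched. The 250 bases before the start were searched on both strands for the GC box, spelled GGGCGG, the box spelled CCAAT, the TATA element, spelled TATAA, the SMAD element core, spelled CAGAC, and the AP-1 site, spelled TGANTCA. Matches on either strand are in capitals. The windows are *COL5A3* at chr19:10010505-10010754, *COL25A1* at chr4:109302659-109302908, *COL12A1* at chr6:75206054-75206303 and *COL16A1* at chr1:31704018-31704267, on the minus strand, and *COL4A5* at chrX:108439588-108439837, on the plus strand.
COL5A3: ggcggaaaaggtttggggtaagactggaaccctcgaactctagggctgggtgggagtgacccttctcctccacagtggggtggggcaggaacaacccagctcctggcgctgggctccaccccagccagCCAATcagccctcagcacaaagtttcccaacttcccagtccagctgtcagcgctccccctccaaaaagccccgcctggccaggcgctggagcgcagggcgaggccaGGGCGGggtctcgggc
COL25A1: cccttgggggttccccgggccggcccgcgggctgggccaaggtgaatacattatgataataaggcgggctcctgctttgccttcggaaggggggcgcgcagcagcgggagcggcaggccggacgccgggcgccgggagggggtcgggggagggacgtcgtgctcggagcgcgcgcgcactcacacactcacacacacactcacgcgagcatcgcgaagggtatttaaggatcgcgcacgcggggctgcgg
COL12A1: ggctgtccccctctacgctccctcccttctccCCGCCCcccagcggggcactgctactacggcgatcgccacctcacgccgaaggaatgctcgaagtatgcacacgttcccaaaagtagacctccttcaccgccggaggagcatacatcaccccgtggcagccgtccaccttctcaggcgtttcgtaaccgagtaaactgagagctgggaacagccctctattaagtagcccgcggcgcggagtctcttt
COL16A1: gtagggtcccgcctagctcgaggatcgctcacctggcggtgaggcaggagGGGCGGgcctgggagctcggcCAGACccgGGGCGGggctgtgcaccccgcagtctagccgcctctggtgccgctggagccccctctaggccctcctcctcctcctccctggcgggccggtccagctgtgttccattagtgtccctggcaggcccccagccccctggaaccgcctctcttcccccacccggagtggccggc
COL4A5: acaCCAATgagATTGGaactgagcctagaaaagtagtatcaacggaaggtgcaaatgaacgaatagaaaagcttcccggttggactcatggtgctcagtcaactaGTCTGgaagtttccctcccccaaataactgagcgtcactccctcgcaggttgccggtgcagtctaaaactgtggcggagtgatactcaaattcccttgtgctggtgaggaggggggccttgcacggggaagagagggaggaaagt

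*COL5A3* held 1 GC box and 1 CCAAT box, *COL12A1* held 1 GC box, and *COL25A1* held none of these letters. *COL16A1* held 2 GC boxes and 1 SMAD element core, and *COL4A5* held 2 CCAAT boxes and 1 SMAD element core. Of all 35116 windows in the table, 42.6% held a GC box, 32.0% a CCAAT box, 18.9% a TATA element, 38% a SMAD element core and 6.57% an AP-1 site. Of the 44 windows of collagen chain genes, 54.5% held a GC box, 27.3% a CCAAT box, 20.5% a TATA element, 36.4% a SMAD element core and 2.27% an AP-1 site. A match is a description of the letters and does not show a factor at the promoter.

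The other genes of the collagen pathway were taken from lists of enzymes, carriers, receptors and proteases. Of 48 tested, 11 were called lower and 1 was called higher, where 5.54% and 2.90% of all tested genes were. Their median log2 fold change was -0.41, against 0.03 over all tested genes. In processing and cross-linking, 5 of 11 tested genes were called lower, namely *LOX*, *LOXL2*, *LOXL4*, *ADAMTS2* and *TLL1*. *LOX*, a lysyl oxidase that cross-links fibrils, was at 747 and 802 CPM in miControl and at 347 and 315 CPM in miR-6133-5p, with a log2 fold change of -1.23. *LOXL2* was at 659 and 606 CPM against 298 and 316 CPM. The groups were apart for both genes. Of 16 genes for hydroxylation and folding, *PLOD2*, *P3H2* and *COLGALT2* were called lower, and *PLOD2*, a lysyl hydroxylase, was at 255 and 290 CPM against 126 and 124 CPM. *P4HB* had a log2 fold change of -0.64 and was not called. In secretion, *SEC24D*, a coat protein of transport vesicles, was at 176 and 180 CPM against 70.6 and 73.5 CPM, and it was the 1 gene of 5 called. *SEC23A* was at 295 and 305 CPM against 207 and 214 CPM. None of the 8 receptors was called, and their median log2 fold change was -0.47. *ITGB1*, the shared beta chain of collagen-binding integrins, had -0.52 with an adjusted p of 1.43e-03 (edgeR), short of the fold threshold. *ITGA1* at -0.73, *ITGA2* at -0.71 and *DDR2* at -0.63 also passed the p threshold but not the fold threshold. *ITGA10* at 0.44 and *DDR1* at 0.30 lay in the other direction. In degradation, *MMP14* was at 182 and 182 CPM against 77.7 and 84.6 CPM and was called lower. *MMP8* was called lower as well, at 0.203 and 0.367 CPM in miControl and with 0 counts in both miR-6133-5p libraries. Its level was thus low in every library, and its call rests on few counts. *MMP2* was at 258 and 244 CPM against 190 and 194 CPM and was not called. *MMP9* was called higher, at 0.366 and 0.312 CPM in miControl and at 1.10 and 1.57 CPM in miR-6133-5p. Neither of the 2 tested fibril-binding proteoglycans, *DCN* and *BGN*, was called.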

How the data were processed

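The authors sequenced 4 libraries and deposited whole-number counts per Ensembl gene, with no normalization. The submitters' processing notes name STAR 2.5.3a, featureCounts and Subread 1.6.4 with the build GRCh37. The counts in each library's own table differed from the joint table in 0 rows. Counts exceeded uniquely mapped read pairs by 1.68 to 1.70 times, so mates may have been counted apart. Symbols, exon lengths and overlaps came from GENCODE lifted to GRCh37, which matched 55665 of 63677 identifiers and may differ from the annotation the authors counted on.

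Genes were filtered with filterByExpr (minimum count 10, minimum total 15), scaled by TMM factors and tested by glmQLFit and glmQLFTest (edgeR 4.0.16, R 4.3.3) with no block. DESeq2 1.42.0 was an alternative, as were RLE, library totals alone, other filters, a replicate block, an adjusted p of 0.05, glmTreat and leaving out each library. Standard errors were derived from the F statistic. The chi-square between replicates, per degree of freedom, was 9.36 in miControl and 31.3 in miR-6133-5p, above counting noise. Values per library are given for called members, the most abundant member of each type, fixed pairs, and *COL13A1* and *COL17A1*. Members just outside a threshold are named. Members and lists were chosen with earlier results of these data known. The procedure was tested on simulated data. Motifs and plots used Python 3.11.15 with pandas 2.3.3 and matplotlib 3.10.9.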

Additional observations from a re-analysis of the deposited data

How the results depend on the processing

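Under RLE, DESeq2, at least 10 counts in every library and an adjusted p of 0.05, the same 6 chains were called lower and the same 2 higher, where 5.62% to 6.54% and 2.66% to 4.06% of all tested genes were. A replicate block kept these 6 and 2 calls, with 6.19% and 3.52% of all tested genes called, and gave a median of -0.33, and same-numbered libraries had a correlation of deviations of 0.0665, so the numbers were not taken to pair the libraries. With glmTreat, 2 chains were called lower and 0 higher, against 326 and 80 genes in all, since that test sets the fold itself against the threshold. With each library left out, 4 to 7 chains were called lower and 1 to 3 higher, where 4.55% to 6.38% and 1.97% to 3.18% of all tested genes were. The median of the tested chains ran from -0.45 to -0.11. The lone library of an arm was then assumed to vary like the others. The summed level in miR-6133-5p stayed between 0.551 and 0.698 of miControl when a library was left out or totals alone were used.

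Directions reversed for 7 chains, none of them called. With library totals alone, the log2 fold change was 0.13 for *COL11A1*, 0.12 for *COL5A2* and 0.023 for *COL18A1*. With 1 library left out, it ran from -0.72 to 0.13 for *COL7A1*, from -0.27 to 0.20 for *COL11A1*, from -0.19 to 0.27 for *COL5A1*, from -0.17 to 0.078 for *COL5A2*, from -0.32 to 0.023 for *COL18A1*, from -0.92 to 0.84 for *COL10A1* and from -0.22 to 1.34 for *COL8A2*. The cause was not tested. With the longest coding transcript as length, *COL1A1* was at 43.7 times *COL1A2* in miControl, against 61.2 with all annotated exons. The ratio of *COL6A3* to *COL6A1* was 2.43 against 1.57, and that of *COL8A1* to *COL8A2* was 107 against 65.1. Chains with few counts limit what depth can show.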
